A study of Rattus norvegicus with 4 samples.

Results

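Senescent rat mesenchymal stem cells that had received both trichostatin A (TSA) and phenamil were compared with young control cells, to describe which genes still differed from the young level after the combined treatment. Genes were taken from the raw count table when their counts over the 4 libraries summed to at least 40, which kept 12228 of the 34034 genes listed. Of the genes not kept, 14551 had no count in any library and 7255 had between 1 and 39. The limit itself separated 40 genes with exactly 40 counts from 38 genes with exactly 39.

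All cells came from rat femurs and were kept in osteogenic induction medium until RNA extraction on day 1. The 4 conditions were young cells with vehicle, senescent cells with vehicle, senescent cells with TSA, and senescent cells with TSA and phenamil, each treated for 24 h and each represented by 1 library of the same labelled batch. Phenamil is the second compound per the sample labels, but a benzyl ether stands in its place in the series' design text, whereas the doses, the means of inducing senescence and the age of the donors were not given in the sources used here. No library received phenamil alone, so the combined treatment cannot be divided into the effect of each compound here.

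Mesenchymal stem cells of the marrow can form bone, cartilage and fat cells, and with senescence they are known to stop dividing, to change what they secrete and to form bone less readily. TSA blocks histone deacetylases, enzymes that remove acetyl groups from histones and so help keep chromatin closed. Phenamil, a derivative of the sodium channel blocker amiloride, is known to strengthen bone morphogenetic protein (BMP) signalling through the pseudokinase Trib3, which lowers the ubiquitin ligase Smurf1 that removes BMP Smads.

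The libraries held 9873894 to 11024227 counts of 3' sequence tags, so that 3 counts, the limit that a count of 0 allows, corresponded to between 0.270 and 0.302 CPM, the counts of a library after scaling to a common total of 1e6. Mesenchymal markers were present in every library: the surface glycoprotein Thy1 lay between 754 and 803 CPM, and Vim, Itgb1, Cd44 and Prrx1 were also counted in all 4. Endoglin (Eng) was at the edge, with 18 to 23 counts a library. Itgam, Lyz2 and Adgre1 of macrophages and Pecam1 and Vwf of endothelium were at 0 in all 4 libraries, and the pan-leukocyte gene Ptprc was at 0 in 3 and at 3 counts in the library with both compounds. Other markers of these cells were counted: Cd14 had 57, 64, 85 and 83 counts in the young, senescent control, TSA and combined libraries, and Cd68, a lysosomal protein of macrophages, had 0, 0, 5 and 9. The endothelial marker Egfl7 had 312, 198, 209 and 197 counts, and Erg had 31, 41, 23 and 36. The mature bone genes Ibsp, Sp7, Sost and Mepe were at 0 throughout, and osteocalcin (Bglap) had 2, 2, 0 and 0 counts, so that markers of differentiated bone cells were at or near 0. In bulk RNA, fewer cells of a type and less RNA per cell cannot be told apart.

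With 1 library a side there is no spread between replicates, and no p-value can be given. Each ratio is therefore the scaled count with both compounds over the scaled young count, with a 95% exact binomial interval that covers counting error only. A gene is called higher or lower where this interval excludes a ratio of 1, and past 1.5-fold where the whole interval lies beyond that size. Counts listed together follow the order young control, senescent control, TSA, TSA with phenamil.

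Few genes were seen to differ by more than 1.5-fold between the library with both compounds and the young library. A gene that did not pass is not thereby shown to be close to young, since intervals were wide where counts were few. Past 1.5-fold lay 68 genes that were higher (0.556% of those compared) and 60 that were lower (0.491%), 128 in all (1.05%). Past 2-fold lay 16 higher genes (0.131%) and 12 lower genes (0.0981%), 28 in all (0.229%). Intervals excluded a ratio of 1 for 1974 higher genes (16.1%) and 1919 lower genes (15.7%), 3893 in all (31.8%), and for 2280 genes (18.6%) the whole interval lay within 1.2-fold of the young level. When libraries were scaled to their total counts alone, every log2 ratio was lower by 0.05, and the higher genes made up 35.0% in place of 50.7% of those called, and 40.5% in place of 53.1% of those past 1.5-fold.

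Set beside it, the other 2 comparisons with the same young library gave larger numbers. Senescent control cells had 165 genes (1.35%) past 1.5-fold from young, and TSA alone had 387 (3.16%). Among genes of at least 50 CPM, the SD of the log2 ratio to young was 0.18 with both compounds, 0.19 in the senescent control and 0.28 with TSA alone. All 3 comparisons divide by 1 young library, so any counting or culture difference of that library enters each of them, and no overlap between them is given. The comparison of TSA with the senescent control, which holds neither library of the main comparison, had 131 genes (1.07%) past 1.5-fold.

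How many genes passed depended on how many counts they had. When genes were divided into 4 equal groups by CPM, the lowest group held 55 higher and 48 lower genes past 1.5-fold, with a median interval width of 1.67 on the log2 scale. In the highest group 8 and 1 were past that size, the median width was 0.24, and 51.5% of genes had an interval that excluded 1 against 20.3% in the lowest group. Only 30 of the 128 genes had 100 or more counts over both libraries, 15 in each direction. The last genes to pass were ND4L at 1.56 (1.51 to 1.62) and Cep152 at 0.492 (0.363 to 0.660), and the first to miss were Hspa8 at 1.68 (1.5 to 1.87) and Rgs7bp at 0.558 (0.458 to 0.678).

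**Figure D1:**
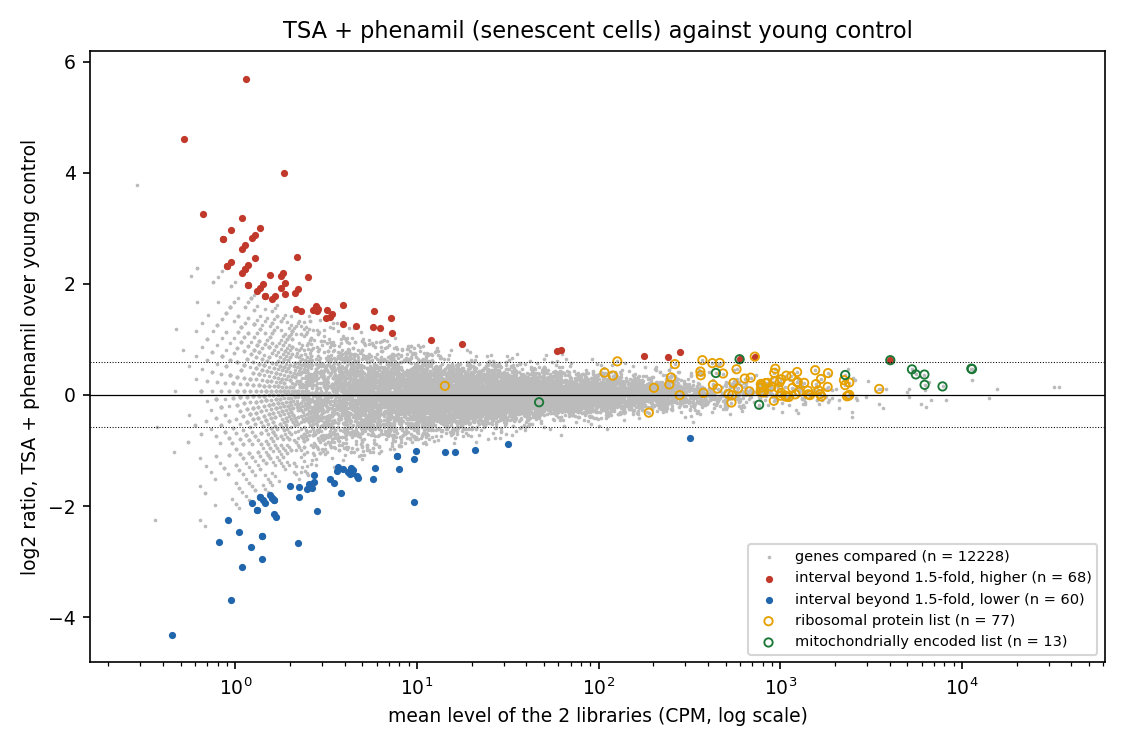
Log2 ratio of TSA with phenamil over young against the mean CPM of both libraries (log scale) for the 12228 genes compared, with the genes past 1.5-fold filled in red (higher) and blue (lower), rings for the ribosomal protein and mitochondrially encoded lists, and dotted lines at 1.5-fold. The filled points crowd at low CPM, where most of the 128 fall in the lowest of 4 groups by abundance, and few lie far from 1 at high CPM.

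The leading genes above the young level were led by Kntc1, which encodes a part of the kinetochore complex that serves the spindle checkpoint. Its counts were 33, 70, 57 and 90, lowest in young cells and highest with both compounds, for a ratio of 2.88 (1.91 to 4.43). Dlgap1, a scaffold protein of the postsynaptic density, had 44, 54, 61 and 109 counts and a ratio of 2.62 (1.83 to 3.80), highest with both compounds. Bmp4, a BMP ligand, had 2291, 3053, 3040 and 3694 counts and a ratio of 1.70 (1.62 to 1.80). All 3 senescent libraries were above the young one for Bmp4, and the one with both compounds was the highest.

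Other genes that led the higher side were high in every senescent library. Stmn2, a microtubule regulator best known from neurons, had 38, 86, 86 and 85 counts (ratio 2.36, 1.59 to 3.56), so the treated and untreated senescent libraries were alike and the young one was low. Cidea, a lipid droplet protein, had 42, 65, 119 and 92 counts (2.31, 1.59 to 3.42) and was highest with TSA alone. The histone gene Hist1h2bq, which has close copies in the genome among which reads cannot be divided with certainty, had 500, 758, 730 and 832 counts (1.76, 1.57 to 1.97). The uncharacterised long noncoding gene LOC102555148 had 51, 106, 119 and 105 counts (2.17, 1.54 to 3.10) and Glt8d2, a putative glycosyltransferase, had 89, 148, 120 and 167 (1.98, 1.52 to 2.59).

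A different order of the libraries was seen for Smoc1, a matricellular protein known as a BMP antagonist. It had 136, 153, 89 and 244 counts, lowest with TSA alone and highest with both compounds, and a ratio of 1.90 (1.53 to 2.36). Pdcd4, an inhibitor of translation initiation, had 481, 580, 572 and 788 counts (1.73, 1.54 to 1.94). Msrb3, a methionine sulfoxide reductase chosen after its values were seen, had 2052, 2451, 2021 and 3125 counts (1.61, 1.52 to 1.70), likewise apart in the last library. Among abundant genes the ribosomal protein gene Rpl4 and the mitochondrial gene ND2 completed the 12 leading higher genes, and they are described with their families below.

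On the lower side the leading genes held several RNAs that do not encode proteins. Trnn, a mitochondrial transfer RNA, had 170, 103, 74 and 42 counts, highest in young cells and lowest with both compounds, and a ratio of 0.261 (0.182 to 0.368). Rn45s, the precursor of ribosomal RNA, had 95, 91, 38 and 31 counts and a ratio of 0.345 (0.222 to 0.522). Both libraries that received TSA were low for Rn45s and both that did not were high. The small nucleolar RNA Snord13 had 309, 247, 198 and 147 counts (0.503, 0.410 to 0.614).

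Protein-coding genes on the lower side included Tril, a helper of Toll-like receptors, with 126, 24, 21 and 47 counts. Every senescent library was below the young one for Tril, and the ratio with both compounds was 0.394 (0.276 to 0.555) where that of the senescent control was 0.192 (0.119 to 0.299). Snx31, a sorting nexin, had 147, 139, 56 and 62 counts (0.446, 0.326 to 0.603), low only in the libraries with TSA. Samd1l1 had 4471, 2782, 2222 and 2462 counts (0.582, 0.554 to 0.611), a lower level in every senescent library, and it was the 1 gene in the highest abundance group that was past 1.5-fold lower.

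The remaining leading lower genes were each lowest with both compounds after scaling. Cd99, a cell surface glycoprotein, had 455, 319, 320 and 233 counts (0.541, 0.460 to 0.635). The nuclear pore gene Nup214 had 213, 136, 133 and 99 counts (0.491, 0.383 to 0.626). Zfp365 had 76, 35, 28 and 26 counts (0.361, 0.222 to 0.571), Susd2, a surface protein used to isolate mesenchymal cells, had 93, 58, 37 and 35 (0.398, 0.261 to 0.592), and Phldb3 had 78, 51, 61 and 26 (0.352, 0.217 to 0.555). Ndufb4-ps6, with 243, 158, 110 and 112 counts (0.487, 0.386 to 0.611), is named as a pseudogene of a respiratory chain gene, and reads from its parent could have been counted with it.

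**Figure D2:**
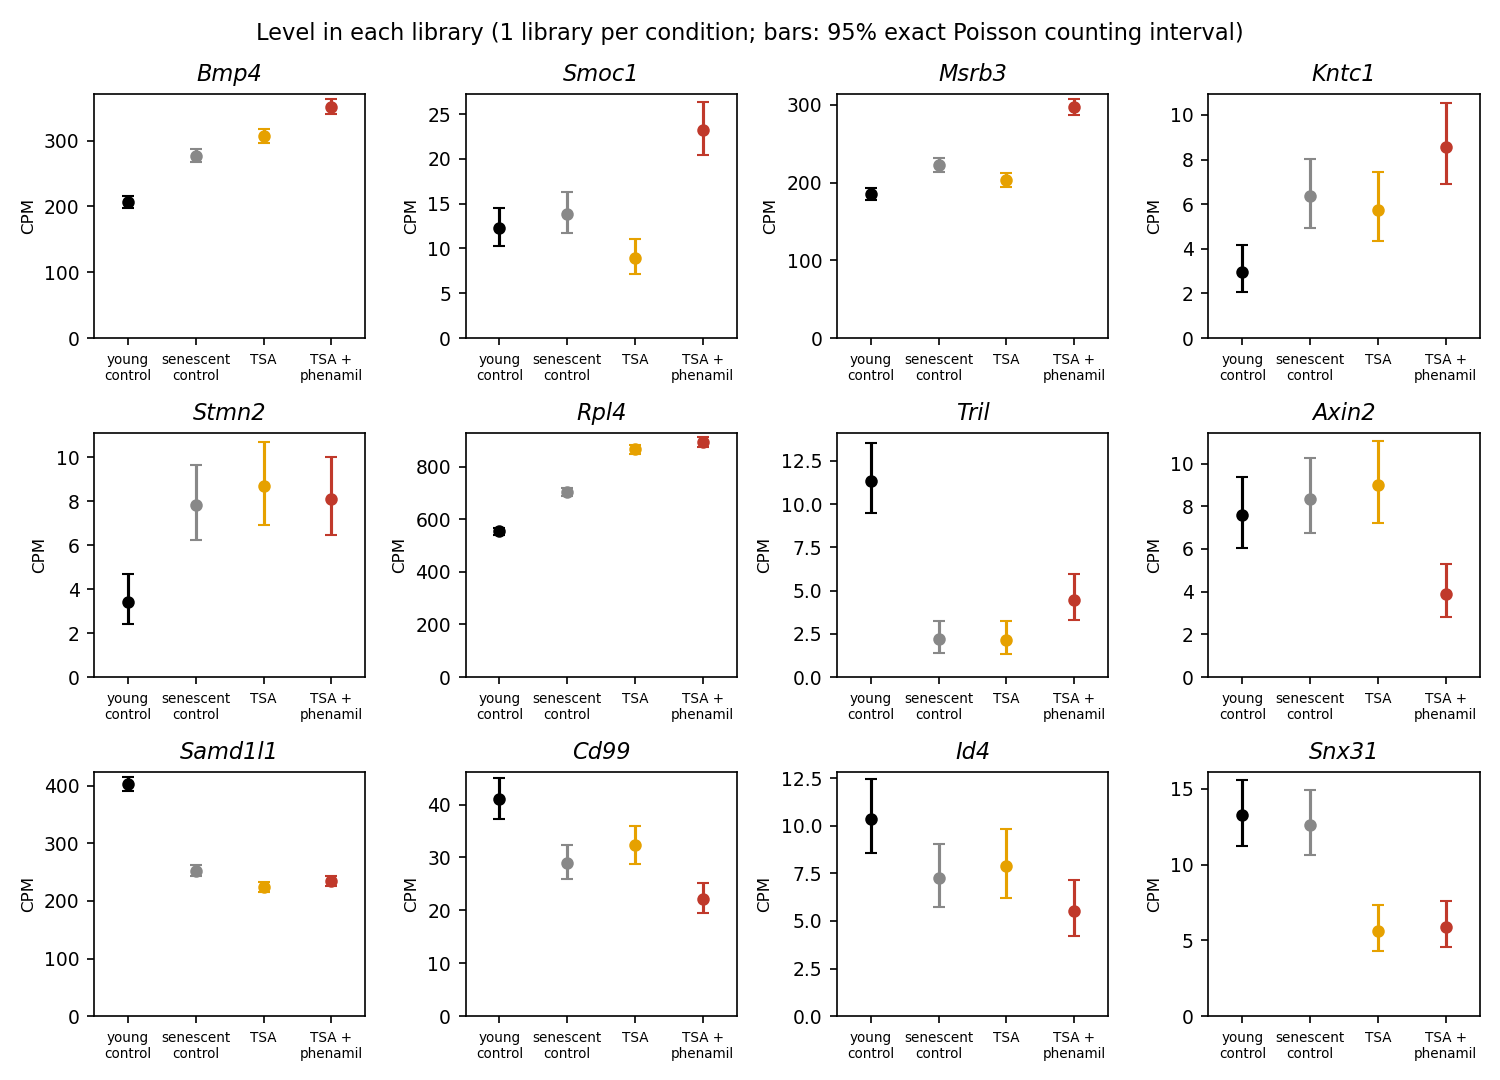
Scaled CPM (linear axis from 0) in each of the 4 libraries for 12 genes above or below young with both compounds, 1 point a library with its 95% exact Poisson counting interval. Bmp4 and Stmn2 lie above the young library in all 3 senescent libraries, Smoc1 and Msrb3 stand apart with both compounds, and Snx31 is low in both libraries with TSA.

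Among the 128 genes, 56 of the 68 higher genes but only 32 of the 60 lower genes are protein coding in the RefSeq annotation, against 11483 of all 12228. Symbols of the provisional LOC or RGD kind made up 13 of the higher and 23 of the lower genes, against 894 of all those compared. Counts over 728 symbols written like those of transfer RNA were 3039, 2513, 2526 and 2125. This pattern of letters can also take in protein-coding genes. Counts over small nucleolar RNA symbols were 844, 840, 692 and 588, and both sums were lowest with both compounds. By annotation, which gives different sets, the median log2 ratio was -0.56 over 25 genes of transfer RNA, with 4% called higher and 20% lower. Of these, 1 was past 1.5-fold higher and none lower, so Trnn was not among them. Over 53 genes annotated as small nucleolar RNA the median was -0.23, with 5.66% higher and 18.9% lower. Over all genes the median was 0.00, with 16.1% higher and 15.7% lower. RNA integrity values were not in the sources used here, and the part of RNA quality in these counts was not tested.

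Many of the higher genes had few counts: 53 of the 68 had under 100 over both libraries, as had 45 of the 60 lower genes. Some are genes whose main sites of expression lie outside mesenchymal cells, and 6 of the 68, chosen after their values were seen, summed to 20, 57, 109 and 145 counts. Choosing among genes called higher made this sum low in the young library and high with both compounds, so those ends carry no further weight. Scgb1a1, a secretory protein of airway club cells, had 2, 14, 27 and 37 counts. The synaptic vesicle gene Syt1 had 2, 6, 19 and 16 counts, the astrocyte glutamate transporter Slc1a2 had 3, 9, 20 and 26, and the neuronal kinase gene Camk2a had 4, 13, 19 and 23. All 4 genes were lowest in the young library and higher in both libraries with TSA than in the senescent control.

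Further members of this group were Ttr, a thyroid hormone carrier made by liver and choroid plexus, with 3, 5, 19 and 20 counts, and the immunoglobulin gene Igha, with 6, 10, 5 and 23. Cd74 (1, 5, 11 and 11 counts) and the globin gene Hba-a1 (3, 10, 7 and 17) had too few counts to be compared and are not among the 68. Neither Igha nor Hba-a1 was higher with TSA alone than in the senescent control. The 16 blood cell and macrophage markers summed to 5.5, 7.17, 12.2 and 12 CPM, with 6 of them at 0 in all libraries, and only Cd14 was compared (1.54, 1.08 to 2.19). The 7 fat cell markers summed to 0.180, 0.454, 0.504 and 1.14 CPM, and the 10 epithelial markers to between 0.0902 and 0.762 CPM with none compared. Whether RNA of other tissues contributed to the higher genes with few counts was not tested.

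Provisional symbols among the 128 included genes at 0 on a side. LOC120095833 had 0, 19, 17 and 11 counts, and LOC120102327 had 10, 16, 16 and 0. With the empty library set to the limit of 3 counts, the first was 3.87-fold higher and the second 3.16-fold lower. These sizes leave out the counting error of the 11 and 10 counts, so they are not lower bounds.

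The list with the most higher members was that of the cytosolic ribosomal proteins, the proteins of the machine that translates messenger RNA. Of 77 genes compared, 56 were higher, 3 were lower and 18 were neither, where 16.1% and 15.7% of all genes were higher and lower. These genes were mostly abundant, and in the highest of 4 abundance groups 51.5% of genes had an interval that excluded 1. The median log2 ratio of the 77 was 0.18, beside 0.00 over all genes. The median in the senescent control over the same young library was 0.12, and with TSA alone it was 0.27. Together they held 7.39, 7.83, 8.70 and 7.96% of counts, so the young library was lowest and the TSA library highest.

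Within this group the ratios ran from 0.802 to 1.61. Rpl4 was at the top with 6142, 7755, 8588 and 9379 counts and a ratio of 1.61 (1.56 to 1.67), followed by Rpl17 at 1.54 (1.48 to 1.61), Rpl32 at 1.52 (1.41 to 1.64) and Rps3a at 1.49 (1.43 to 1.55). Rpl36 was lowest at 0.802 (0.753 to 0.853), with 210, 213, 182 and 168 CPM, and Rps14 at 0.910 (0.877 to 0.944) and Rplp1 at 0.930 (0.904 to 0.956) were the other lower members. Scaling to total counts left 48 higher and 16 lower, and when each library was assumed to vary with a coefficient of variation of 0.1 beyond counting, 11 were higher and none lower, and at 0.2 none was called in either direction. Ribosomal protein genes have many processed pseudogenes, and the counting of reads shared with these was not given in the sources used here.

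Promoters of ribosomal protein genes are known for a tract of pyrimidines at the start of transcription, and 3 are shown here: those of Rpl4 and Rps3a, among the 4 highest ratios of the 77, and that of Rpl36, the lowest. The sequences are those of RefSeq on GRCr8 from 120 bases before to 30 bases after the annotated start, read 5′ to 3′ on the gene's strand, with CTTCC and its reverse complement GGAAG in capitals. This motif was chosen after the sequences had been viewed. Rpl4 lies at chr8:73566357-73566506 on the plus strand, Rps3a at chr2:173827013-173827162 on the minus strand and Rpl36 at chr9:1533660-1533809 on the plus strand.
Rpl4: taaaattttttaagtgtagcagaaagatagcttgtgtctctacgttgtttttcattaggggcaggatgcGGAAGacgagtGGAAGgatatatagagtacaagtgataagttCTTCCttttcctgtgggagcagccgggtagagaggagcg
Rps3a: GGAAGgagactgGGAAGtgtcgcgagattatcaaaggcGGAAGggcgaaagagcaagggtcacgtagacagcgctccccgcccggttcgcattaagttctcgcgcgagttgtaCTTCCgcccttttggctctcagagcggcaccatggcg
Rpl36: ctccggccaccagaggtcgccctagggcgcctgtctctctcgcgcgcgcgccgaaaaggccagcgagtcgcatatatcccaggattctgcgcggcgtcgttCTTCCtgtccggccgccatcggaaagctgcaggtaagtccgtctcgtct

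A promoter was found by gene ID for 62 of the 77 ribosomal protein genes and for 9856 of all genes compared. CTTCC on the gene's strand between 20 bases before and 30 after the start was present in 23 of the 62 (37.1%) and in 1152 of the 9856 (11.7%), and in 10.02% of all 27457 promoters in the table. On either strand of the 150 bases the shares were 72.6%, 53.5% and 47.6%. The members at both ends of the range, Rpl4 and Rpl36, each held the motif near the start, and a match of letters is a description and not a binding site.

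The respiratory chain is built from proteins of both the mitochondrial and the nuclear genome, and the mitochondrially encoded set had mostly higher members. Of the 13 genes encoded in mitochondrial DNA, 11 were higher and 1 was lower, beside 16.1% and 15.7% of all genes. Their median log2 ratio was 0.37 with both compounds, 0.08 in the senescent control and 0.15 with TSA alone. Their share of all counts was 5.47, 5.66, 6.02 and 6.85%, highest with both compounds. ND2, a subunit of complex I, had 35170, 37965, 33944 and 51366 counts, with 3 libraries close together and the fourth above them, for a ratio of 1.54 (1.52 to 1.56). ND4L was at 1.56 and ND4 at 1.39 (1.38 to 1.4).

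Mitochondrial genes did not all follow. ATP8, a small subunit of the ATP synthase, was at 811, 693, 432 and 717 CPM and lower with both compounds (0.885, 0.858 to 0.913), and ND6, the gene read from the other strand, was at 0.913 (0.805 to 1.03). Of 46 nuclear genes of the chain, 18 were higher and 9 lower (median 0.08), beside 16.1% and 15.7% of all genes. Under total counts 13 of the nuclear genes were higher and 12 lower. Ndufs1, a core subunit of complex I, was at 1.85 (1.37 to 2.51), Ndufa5 at 1.36 (1.29 to 1.44) and Cox7b of complex IV at 1.33 (1.25 to 1.4), whereas Ndufs7 was at 0.8 (0.706 to 0.905) and Atp5f1d at 0.812 (0.745 to 0.884). With an assumed coefficient of variation of 0.1, 5 mitochondrial and 2 nuclear genes were still higher, and at 0.2 none of either set was called.

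Ribosomal and respiratory genes are short, and gene length moved with the ratio over all protein-coding genes. The median log2 ratio was 0.03 in the group of genes with the shortest genomic span (up to 10.3 kb) and -0.03 in the group with the longest (from 59.3 kb), out of 4 equal groups. In the shortest group 19.8% were higher and 13.3% lower, and in the longest 12.6% and 19.4%. The same medians with TSA alone over young were 0.09 and -0.11, and the part of length in the result for these families was not tested.

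**Figure D3:**
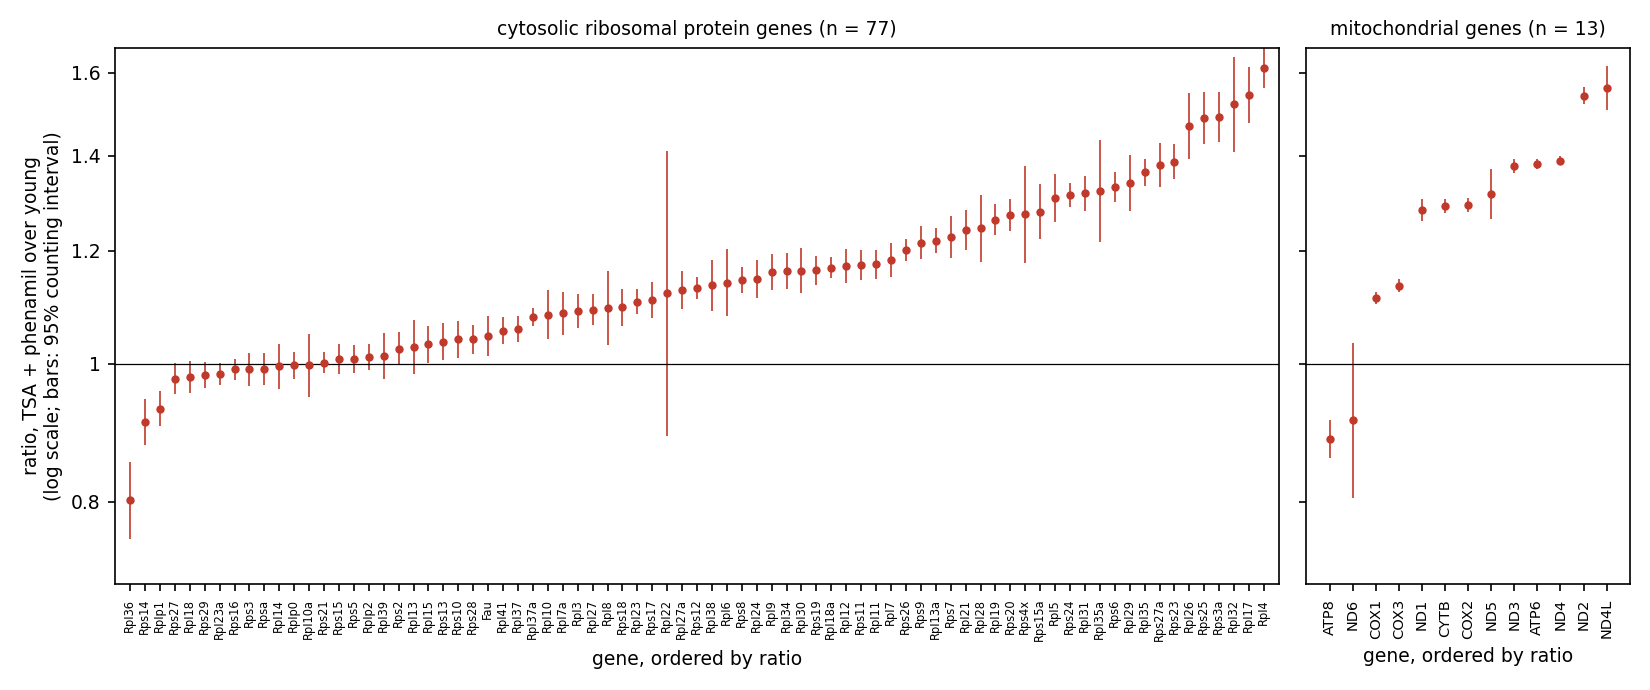
Ratio of TSA with phenamil over young (log scale) for each of the 77 cytosolic ribosomal protein genes and the 13 mitochondrially encoded genes, ordered by ratio, with bars for the 95% counting interval. Most points lie above the line at 1 in both panels, with Rpl36, Rps14, Rplp1 and ATP8 the members whose whole interval lies below it.

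Genes of the bone-forming program lay on both sides of the young level, and the transcription factors were called about as often as all genes. Runx1, a relative of Runx2 with roles in early skeletal cells, had 1098, 1015, 915 and 885 counts, and its ratio was 0.851 (0.778 to 0.931). Runx2, the transcription factor needed for bone formation, was at 26.8, 19.6, 17.2 and 23.6 CPM, and its ratio of 0.882 (0.742 to 1.05) did not exclude the young level. The 13 osteogenic transcription factors, 2 of them higher and 2 lower beside 16.1% and 15.7% of all genes, had a median log2 ratio of -0.15. Fosl1 (1.41, 1.02 to 1.96) and Atf4 (1.05, 1.01 to 1.08) were the higher members, and neither stayed higher when scaled to total counts.

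A pair of regulators below the young level were chosen after their values were seen. Vdr, the vitamin D receptor, had 58, 44, 9 and 22 counts (0.401, 0.234 to 0.665), low in both libraries with TSA. Glis1, a zinc finger factor, had 29, 4, 4 and 7 counts (0.255, 0.0943 to 0.595), low in every senescent library.

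Of 11 osteoblast matrix and mineral genes 6 were higher and 2 lower, beside 16.1% and 15.7% of all genes. With an assumed coefficient of variation of 0.1, none of the 11 stayed higher and 1 stayed lower. The median of 0.11 was the same as that of the senescent control over young. Osteopontin (Spp1), a phosphoprotein of bone matrix, had 25881, 46198, 42815 and 29691 counts, so that the library with both compounds lay much nearer to young than the other senescent libraries did. Its ratio was 1.21 (1.19 to 1.23), against 1.80 (1.77 to 1.83) for the senescent control. Osteomodulin (Omd) was at 1.31 (1.16 to 1.48) and Sparc, also called osteonectin, at 1.07 (1.07 to 1.08). Alkaline phosphatase (Alpl), which frees phosphate for mineral, was at 1.24 (1.02 to 1.5), a call that was lost under total counts, and Enpp1, which makes the mineral inhibitor pyrophosphate, was at 0.923 (0.887 to 0.961).

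Cartilage and fat genes that stem cells can also switch on lay on both sides, beside 16.1% of all genes higher and 15.7% lower. Prg4, the joint lubricant lubricin, had 28, 12, 17 and 3 counts, a ratio of 0.113 (0.0220 to 0.366) that rests on 3 counts. The 13 chondrogenic genes held 3 higher and 5 lower members, among them Col11a1 and Col9a2 (0.784, 0.727 to 0.846) below young. Sox9, the regulator of cartilage formation, was at 1.17 (1.03 to 1.34), and this call was lost under total counts. Pparg, the regulator of fat cell formation, was at 0.649 (0.488 to 0.860) and Cebpa at 0.691 (0.479 to 0.989), in a list of 10 adipogenic genes with 3 higher and 3 lower.

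BMP signalling, the pathway that phenamil is known to act on, had members on both sides of the young level. Of 19 ligands, receptors and antagonists 5 were higher and 2 lower, beside 16.1% and 15.7% of all genes. The median was -0.05 but the mean 0.14. Besides Bmp4, the ligand Bmp5 was higher at 5, 14, 23 and 20 counts (4.23, 1.54 to 14.4), and the receptor Acvr2a was higher at 76, 107, 79 and 130 (1.81, 1.35 to 2.43). Bmp3, a ligand that opposes BMP signalling, was lower at 0.731 (0.592 to 0.899), and Fstl1, a secreted antagonist, was lower at 0.847 (0.835 to 0.859). Bmp2 was at 37.5, 25.9, 23.0 and 37.1 CPM, equal to young within counting error with both compounds (0.99, 0.860 to 1.14).

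The median of 17 BMP target and feedback genes was -0.12, with 1 of them higher, 4 lower and the other 12 neither. Among all genes 16.1% were higher and 15.7% lower. Id4, a repressor induced by BMP, was lower at 115, 80, 78 and 58 counts (0.533, 0.382 to 0.737), and Smad7, the inhibitory Smad, was lower at 198, 176, 148 and 117 (0.624, 0.492 to 0.788). Both were lowest with both compounds. Id1 was at 1.02 (0.922 to 1.13) and Smad6 at 1.06 (0.928 to 1.2), near the young level, and the shared partner Smad4 was higher at 1.23 (1.09 to 1.39). Trib3 was at 192, 176, 158 and 158 CPM, lower than young at 0.824 (0.773 to 0.879), and Smurf1 was at 0.964 (0.821 to 1.13).

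Of the other growth factor pathways, the Notch list had called members below young and none above it, and the rest had both. Their counts are read beside the 16.1% of all genes that were higher and the 15.7% that were lower. WNT signalling, which keeps precursors and promotes bone formation, had a median of -0.07 over 20 genes, 2 of them higher and 5 lower. Axin2, a feedback target of WNT, had 84, 92, 89 and 41 counts, low only with both compounds, at 0.516 (0.346 to 0.758). Among 10 genes of the Notch pathway, in which cells signal to their neighbours, none was higher and 4 were lower, with medians of -0.17 with both compounds, -0.45 in the senescent control and -0.75 with TSA alone. Notch1 had 137, 72, 44 and 77 counts (0.594, 0.443 to 0.791) and the target Hey2 was at 0.677 (0.547 to 0.836), while Notch3 was at 1.04 (0.890 to 1.22) and 0.535 (0.443 to 0.645) in the senescent control.

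Of 19 TGF-beta genes 3 were higher and 5 lower, with the co-receptor Tgfbr3 at 1.77 (1.18 to 2.69) and the repressor Skil at 0.818 (0.737 to 0.909). The insulin-like growth factor axis had a median of -0.19 over 12 genes, 2 of them higher and 4 lower. Igfbp7, a binding protein secreted by senescent cells, was at 1.33 (1.26 to 1.4), the protease Pappa2 at 2.57 (1.41 to 4.94) and the receptor Igf1r at 0.831 (0.794 to 0.871). Of 25 fibroblast and platelet-derived growth factor genes 3 were higher and 3 lower, and Fgf1 had 40, 13, 12 and 14 counts (0.370, 0.186 to 0.694), low in every senescent library. The 23 immediate early genes held 5 higher and 2 lower, with the transcription factor Klf4 at 1.64 (1.31 to 2.07) and the nuclear receptor Nr4a1 at 0.609 (0.445 to 0.827).

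Collagens, the main proteins of the matrix, were close to young in size of difference but lower more often than higher. Of 19 fibrillar and network collagen genes 4 were higher and 11 lower, beside 16.1% and 15.7% of all genes. The median was -0.06 with both compounds, -0.27 in the senescent control and -0.37 with TSA alone. Col11a1, a minor fibrillar collagen, had 31357, 26325, 21650 and 22454 counts and a ratio of 0.756 (0.744 to 0.770). It was below young in every senescent library and lowest in both with TSA. Col8a1 was at 0.813 (0.799 to 0.827) and Col14a1 at 0.841 (0.810 to 0.874).

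The major collagen of bone, Col1a1, had 337874, 328933, 264686 and 352569 counts and was higher at 1.10 (1.10 to 1.11), with Col3a1 at 1.08 (1.07 to 1.09). Col5a2 was at 1.03 (1.01 to 1.05) and turned to 0.991 under total counts. No collagen of the list was past 1.5-fold, and with an assumed coefficient of variation of 0.1 only 1 was still lower and none higher.

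Basement membrane genes numbered 5 higher and 5 lower of 17, where 16.1% and 15.7% of all genes were higher and lower. Perlecan (Hspg2), a large heparan sulfate proteoglycan, had 4298, 3219, 2685 and 2900 counts, lower in every senescent library, and a ratio of 0.713 (0.680 to 0.747). Laminin genes were split, with Lama2 at 0.480 (0.268 to 0.832) and Lama3 at 1.58 (1.18 to 2.13). Among 21 collagen processing genes 3 were higher and 8 lower, with the prolyl hydroxylase subunit P4ha3 at 573, 792, 616 and 852 counts (1.57, 1.41 to 1.75) and P3h1 at 0.827 (0.760 to 0.899).

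The 20 matricellular proteins, which adjust how cells meet the matrix, held 8 higher and 4 lower members, beside 16.1% and 15.7% of all genes. Sparcl1 had 3, 10, 9 and 24 counts, a ratio of 8.45 (2.57 to 43.8) that rests on 3 young counts, and hemicentin Hmcn1 was at 0.807 (0.734 to 0.887). Of 15 elastic fibre genes none was higher and 4 were lower, with fibrillin Fbn1 at 817, 577, 445 and 714 CPM (0.874, 0.848 to 0.902). The 10 small leucine-rich proteoglycans had 2 each way, and the 20 metalloproteinases and inhibitors had 1 higher and 6 lower, with Adamts1 at 0.510 (0.313 to 0.814) and Mmp14 at 0.826 (0.781 to 0.874).

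Among genes that mark cell form, the contractile and integrin lists had medians near the young level and the epithelial-type list had one above it. Smooth muscle actin (Acta2) had 57730, 49649, 30452 and 53155 counts, low with TSA alone and at 0.973 (0.961 to 0.984) with both compounds. Its list of 17 contractile genes had 5 higher and 3 lower, and the 17 integrin subunits had none higher and 2 lower, among them Itgb1 at 0.934 (0.914 to 0.954). Over all genes 16.1% were higher and 15.7% lower. The 9 epithelial-type keratin and junction genes had 2 higher and none lower, with medians of 0.28 with both compounds, 0.66 in the senescent control and 0.96 with TSA alone.

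Some genes far from young in the other senescent libraries were near it with both compounds. Krt7, a keratin, had 49, 143, 187 and 38 counts (0.819, 0.522 to 1.28), and the water channel Aqp1 had 365, 888, 1194 and 311 (0.9, 0.771 to 1.05). The muscle enolase Eno3 had 365, 907, 1191 and 436 counts and stayed slightly higher at 1.26 (1.10 to 1.45). In each of the 3 genes the senescent control and TSA libraries were high and the young library and that with both compounds were low.

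**Figure D4:**
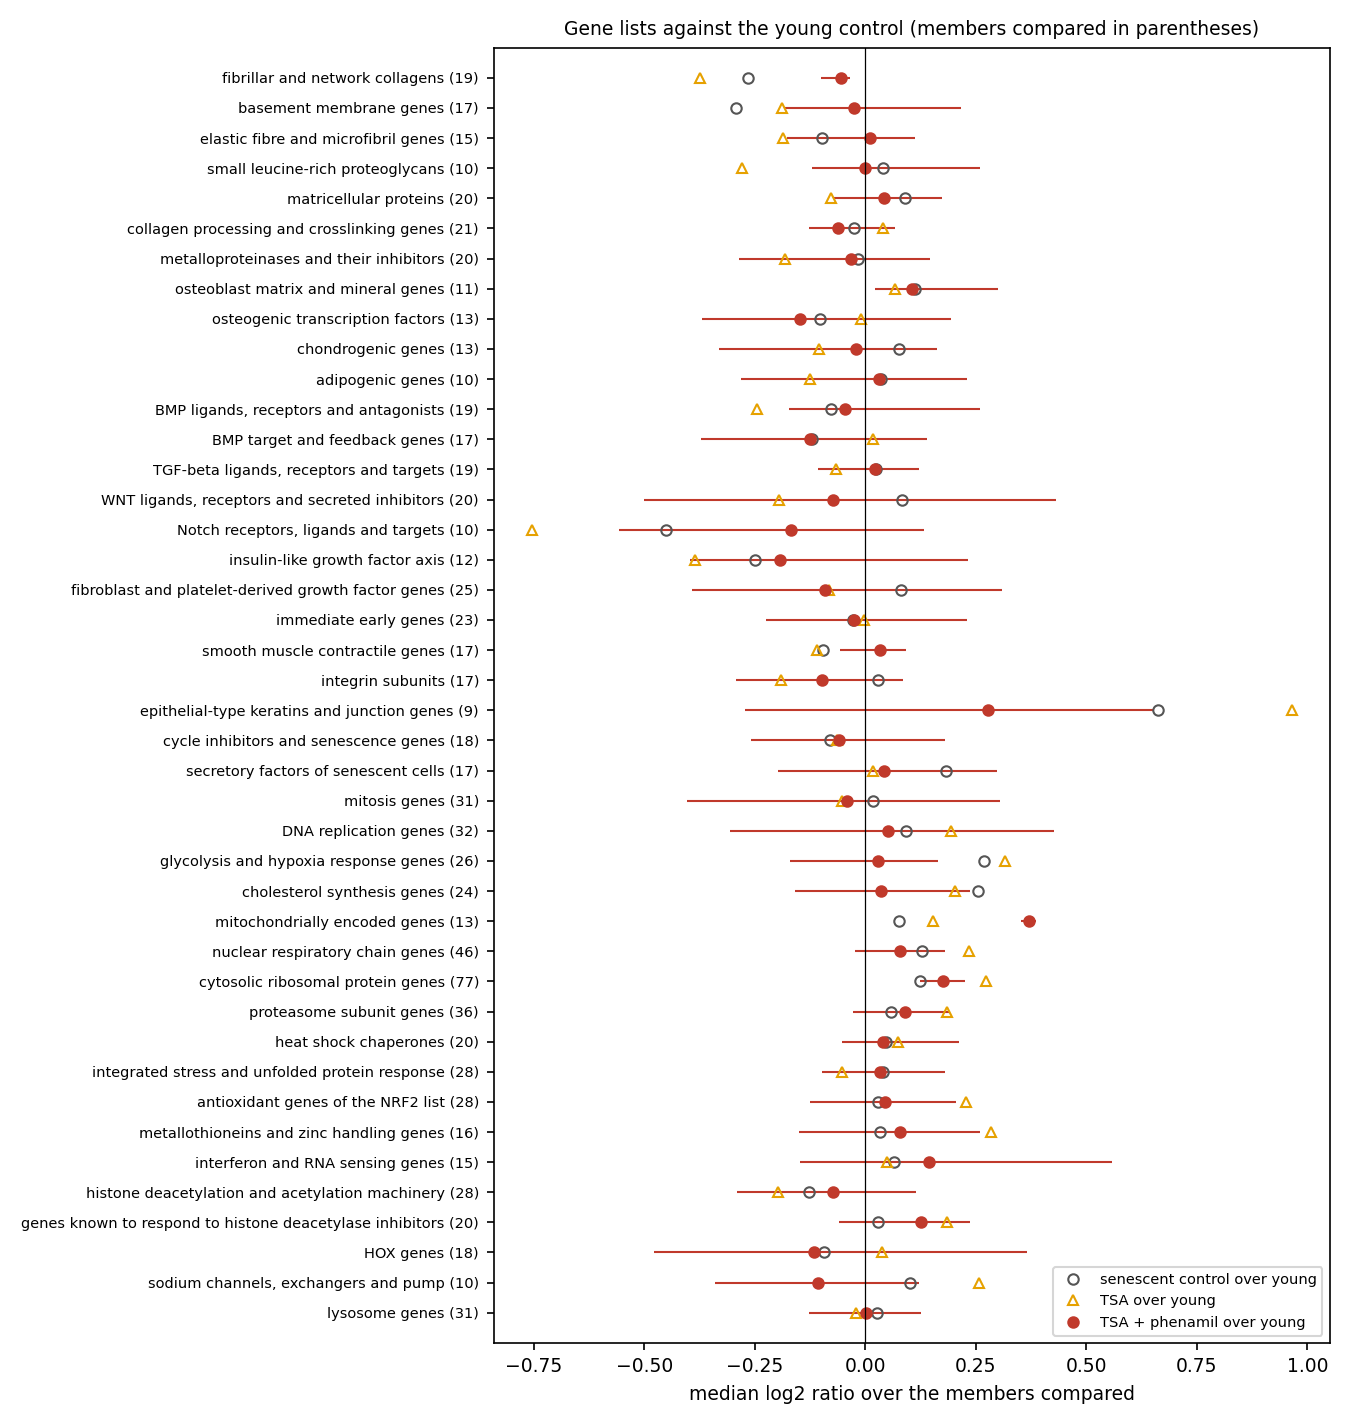
Median log2 ratio to young of each gene list other than the marker lists with 4 or more members compared, for TSA with phenamil, the senescent control and TSA alone, which share the young library. Bars on the values for both compounds run from the median of the members' lower bounds to the median of their upper bounds, and the mitochondrially encoded and ribosomal protein lists are those whose whole bar lies farthest above 0.

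Genes of the cell cycle and of senescence gave little difference from young. The median of 18 cycle inhibitors and senescence genes was -0.06, with 1 of them higher, 2 lower and the other 15 neither. Among all genes 16.1% were higher and 15.7% lower. The inhibitor p21 (Cdkn1a) had 2625, 2583, 2236 and 2130 counts and was lower at 0.857 (0.809 to 0.908), and Ccng1, a target of p53, was higher at 1.31 (1.21 to 1.41). Cdkn2a, whose products include p16 and were not told apart here, was at 6.13, 5.08, 7.66 and 7.05 CPM (1.15, 0.816 to 1.62). Cdkn2b was at 1.06 (0.972 to 1.15) and lamin B1 (Lmnb1) at 0.928 (0.802 to 1.07). In the untreated senescent library, over the same young library, Cdkn1a was at 0.991 (0.938 to 1.05), Cdkn2a at 0.829 (0.572 to 1.2), Cdkn2b at 1.30 (1.2 to 1.4) and Lmnb1 at 0.907 (0.785 to 1.05).

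Proliferation genes divided in the same way, read beside the 16.1% of all genes higher and the 15.7% lower. Among 31 mitosis genes 3 were higher and 5 lower, with Ndc80 at 1.32 (1.14 to 1.54) and the kinase Ttk at 0.636 (0.467 to 0.860), and Mki67, the usual mark of cycling cells, was at 0.847 (0.732 to 0.978). Of 32 DNA replication genes 3 were higher and 1 lower, with the primase subunit Prim1 at 1.52 (1.36 to 1.71) and E2f1 at 1.58 (1.25 to 2.0). The 17 secretory factors of senescent cells had 5 higher and 2 lower, with Mmp3 at 1.08 (1.03 to 1.13), a call lost under total counts, and Il6 at 0.984 (0.627 to 1.54).

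Metabolic lists that stood above young in the other senescent libraries were near it with both compounds. The medians of 26 glycolysis and hypoxia genes were 0.03 with both compounds, 0.27 in the senescent control and 0.32 with TSA alone, with 5 higher and 5 lower. Shares over all genes were 16.1% higher and 15.7% lower. Lactate dehydrogenase (Ldha) was still higher at 1.24 (1.12 to 1.36) and Eno2 was lower at 0.807 (0.774 to 0.841). For 24 cholesterol synthesis genes the medians were 0.04, 0.26 and 0.20 in the same order, with 6 higher and 2 lower. Ebp (1.4, 1.15 to 1.71) and Sqle (1.33, 1.17 to 1.5) were above young, and Mvk (0.654, 0.502 to 0.849) and the sterol carrier Stard4 (0.555, 0.401 to 0.764) below it.

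Stress and protein quality genes had more higher than lower members in most lists, where 16.1% and 15.7% of all genes were higher and lower. The 36 proteasome subunits had a median of 0.09, with 14 higher and 7 lower, and Psme2 at 1.33 (1.14 to 1.54) and Psma4 at 1.23 (1.17 to 1.30) were among the higher ones. Of 20 heat shock chaperones 8 were higher and 3 lower, among them Hspa8 at 1.68 and Hspe1 at 1.41 (1.33 to 1.49) above and Hspa1a, which has a near-identical copy, at 0.698 (0.578 to 0.842) below. The 28 antioxidant genes had 9 higher and 3 lower, with catalase (Cat) at 1.34 (1.17 to 1.53), and the 28 stress and unfolded protein response genes 9 and 5. Of 15 interferon and RNA sensing genes 3 were higher and none lower, with Ifitm3, an antiviral membrane protein, at 1.11 (1.06 to 1.16), and the 16 metallothionein and zinc genes had 3 each way. Under total counts the proteasome list held 10 higher and 8 lower, chaperones 5 and 4, and antioxidant genes 7 and 5. The stress response list then held 5 and 8, interferon 2 and 0, and metallothionein 1 and 3. With an assumed coefficient of variation of 0.1, no proteasome, antioxidant, stress response or interferon gene was called. Chaperones kept 2 higher and 1 lower, and metallothionein genes 1 each way.

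Chromatin genes that TSA acts on or is known to move were again on both sides, beside 16.1% of all genes higher and 15.7% lower. Of 28 genes of the histone acetylation and deacetylation machinery 4 were higher and 7 lower, with Hdac11 at 7, 11, 17 and 20 counts (3.02, 1.23 to 8.45), Ep300 at 0.695 (0.587 to 0.823) and Sirt1 at 0.647 (0.5 to 0.833). The 20 genes that deacetylase inhibitors are known to move had a median of 0.13, with 6 higher and 4 lower, and Gadd45a, a growth arrest gene, was at 1.34 (1.25 to 1.44). The linker histone H1f0, a usual mark of such inhibitors, was at 118, 126, 138 and 129 CPM and at 1.09 (1.01 to 1.18), lost under total counts. The 18 HOX genes had 4 each way, with Hoxb4 at 2.31 (1.25 to 4.47) and Hoxa3 at 0.745 (0.630 to 0.881), and their median of -0.12 and mean of 0.07 had opposite signs.

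The remaining lists are given by their counts, to be read beside the same shares of all genes (16.1% higher and 15.7% lower). The 31 lysosome genes had 5 each way, with the cholesterol exporter Npc1 at 0.605 (0.480 to 0.759) and the lysosomal regulator Tfeb at 0.468 (0.286 to 0.747), and the 10 sodium channel, exchanger and pump genes had 2 each way. The 14 mesenchymal stem cell markers had 4 higher and 2 lower, with Cd9 at 1.36 (1.17 to 1.58) and Vcam1 at 0.413 (0.168 to 0.927). Of the 2 endothelial markers compared, Egfl7 was lower (0.667, 0.555 to 0.8), and the 4 skeletal muscle markers compared held 1 higher, Acta1 at 1.25 (1.10 to 1.42). Over the 44 lists with 4 or more members compared, 32 had a median within 0.1 of 0, 6 at or above that and 6 at or below its negative. Scaling to total counts turned the balance from more higher to more lower members in 7 lists: BMP ligands (5 and 6), immediate early genes (3 and 5), contractile genes (4 and 7), cholesterol synthesis (3 and 4), the stress and unfolded protein response (5 and 8), genes moved by deacetylase inhibitors (3 and 5) and mesenchymal markers (3 and 4).

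The ratio of TSA over the senescent control offers a reading of the same genes without the young library or that with both compounds. Its libraries did enter the filter of at least 40 counts over the 4 libraries. They thus helped to decide which genes with few counts were kept, and the reading is not independent of the choice of genes. In both comparisons the numerator had received TSA and the denominator had not. Of the 68 genes past 1.5-fold higher, 14 were higher with TSA (20.6%) and 4 lower (5.88%), beside 15.7% and 14.7% of all genes, and 50 were neither. Of the 60 lower genes 13 were lower with TSA (21.7%), 6 higher (10%) and 41 neither. Most genes of both sets had under 100 counts over the young and combined libraries. In the main comparison called shares rose with counts, so the shares of all genes are not given at like depth. The median log2 ratio of TSA over the senescent control was 0.26 for the higher and -0.16 for the lower genes, beside 0.00 over all genes.

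Single genes differed in this reading. Snx31 was at 0.447 (0.322 to 0.614) with TSA over the senescent control and at 0.446 with both compounds over young, and Rn45s was at 0.464 (0.309 to 0.684) and 0.345. Cidea was at 2.03 (1.49 to 2.79) and Rpl4 at 1.23 (1.19 to 1.27) with TSA. Kntc1 at 0.904 (0.626 to 1.30), Stmn2 at 1.11 (0.814 to 1.51) and Tril at 0.972 (0.514 to 1.82) showed no such difference at this depth, and Smoc1 was lower with TSA at 0.646 (0.492 to 0.844) while higher in the main comparison. Across the 9691 genes with at least 100 counts over the young library and that with both compounds, Pearson's r between the 2 log2 ratios was 0.16, a description across genes that are not independent replicates.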

How the data were processed

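RNA of 4 rat cell samples was sequenced as 3' tags (QuantSeq, 100 bp single reads), per the labels' protocols. The authors aligned with STAR 2.7.10b to mRatBN7.2 and counted with HTSeq 2.0.2, per the submitters' processing notes. The annotation, strand setting and handling of shared reads were not given in the sources used here. The deposited raw counts were used, and the deposited log2 values, which match log2 of the scaled count plus 1, served as an alternative. Libraries were scaled by TMM (edgeR 4.0.16, R 4.3.3) over all 4. Ratios and 95% exact conditional binomial intervals used Python 3.11.15 and scipy 1.17.1, and log2 ratios a prior count of 0.5. Intervals and the limit of 3 counts cover counting error only: the labels mention no molecular identifiers, and tags without them are not independent molecules. edgeR's quasi-likelihood test could not be run with 1 library per condition, since no residual degrees of freedom remain. The interval code was tested on simulated data.

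Gene names and types came from RefSeq by gene ID, found for 98.2% of the genes compared. Its assembly (GRCr8) is not that of the counts, so its coordinates are used for promoter sequences and spans alone. Genes named were the 12 highest and 12 lowest with at least 100 counts over both libraries, ranked by the interval bound nearest to 1, at most 3 members of each list in each direction, and a set of anchor genes. Members, the 49 lists and the anchors were chosen with earlier results of these data known. The results were recomputed with size factors of DESeq2 1.42.0, with total counts, other TMM sets, count filters, fold sizes, prior counts, an assumed coefficient of variation, and 2 chosen after seeing the data (protein-coding genes only, and at least 100 counts in both libraries).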

Additional observations from a re-analysis of the deposited data

How the results depend on the processing

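The 68 higher and 60 lower genes past 1.5-fold became 174 and 142 without a count filter, 16 and 14 with at least 200 counts, 375 and 326 at 1.2-fold, 16 and 12 at 2-fold, 42 and 39 when a coefficient of variation of 0.1 was assumed, and 23 and 13 at 0.2. With protein-coding genes only, 32 were lower and 56 higher, and with at least 100 counts in both libraries 15 and 15; both settings were chosen after seeing the data. The genes whose interval excluded no change became 536 higher and 507 lower at 0.1, and 143 and 137 at 0.2. Total counts moved the medians of collagens to -0.11, mitochondrially encoded genes to 0.32 and ribosomal proteins to 0.12, turned Col5a2 to 0.991 and ended 20 of 237 named calls. The share of higher genes past 1.5-fold was 53.1%, and 63.9% at 0.2 and 63.6% with protein-coding genes only. DESeq2 size factors, TMM without mitochondrial and ribosomal genes and the deposited log2 values ended no named call. Of the 24 leading genes, 24 excluded no change at 0.1 and 19 at 0.2, where Bmp4, ND2, Pdcd4, Rpl4 and Samd1l1 did not. No paired analysis was possible because each condition has 1 library. Depth limits genes with few counts, and no alternative here measures variation between cultures.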

Other observations

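Some genes past 1.5-fold that the naming rule did not reach may repay a second look, and they were chosen after their values were seen. Counts are in the order young control, senescent control, TSA, TSA with phenamil. Vars2, the mitochondrial valyl-tRNA synthetase, had 51, 20, 10 and 11 counts and a ratio to young of 0.228 (0.107 to 0.443). Ube2l6, the conjugating enzyme of the interferon-induced modifier ISG15, had 58, 38, 51 and 18 counts (0.328, 0.182 to 0.564) and was low only with both compounds. Exosc3, a subunit of the RNA exosome, had 34, 10, 48 and 10 counts (0.311, 0.137 to 0.643), low in the senescent control and with both compounds and high in the other libraries.

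On the higher side, Traf1, an adaptor of tumour necrosis factor receptors, had 19, 26, 28 and 48 counts (2.67, 1.54 to 4.81). The chemokine Cxcl13 had 7, 29, 23 and 32 counts (4.83, 2.09 to 13.0) and the vesicle transport gene Rab6b had 20, 49, 57 and 51 (2.69, 1.58 to 4.77), both low only in the young library. All 6 genes had under 100 counts over both libraries, and no other library repeats any condition.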
